A study of Rattus norvegicus with 25 samples.

Results

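Probe set b6959 was the largest of the 66 probe sets on the HuGChip, a microarray whose probes are short pieces of bacterial 16S ribosomal RNA genes found in the gut. Its members were chosen by name, as all probes whose name begins with b6959_, and numbered 324 of the 4441 probes on the array. Sets b6973, b6968 and b6956 came next with 221, 205 and 198 probes. Each probe had 25 bases and 3 spots, so the set filled 972 spots of an array. The number next to the set name was read as a probe group and the last number as a variant within it. Only the names support reading the set as probes for related bacteria. The files pair no taxon with it, and none is named here.

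The samples were faecal DNA of Wistar rats fed for 12 weeks, and the sources used here do not give the rats' age or sex. Group PO (6 rats) had a control oil of equal energy and group LO (6 rats) had linseed oil. Wheat aleurone was added to the control oil in A+PO (6 rats) and to the linseed oil in A+LO (7 rats). As background, aleurone is a cell layer of the wheat grain that surrounds its starchy part, and the omega-3 fatty acid alpha-linolenic acid abounds in linseed oil. The study asked how the 2 diet components act together on the gut microbiota. Every sample without aleurone carried the dye Cy3 and every sample with it the dye Cy5. The control-oil samples lay on one slide and the linseed samples on another. Effects of aleurone and of the dye therefore cannot be told apart in these data, nor can those of the oil and of the slide. An array held a Cy3 sample and a Cy5 sample. PO and A+PO samples of the same number shared an array, LO 3 shared one with A+LO 1, LO 11 with A+LO 9, and A+LO 11 had no listed partner. The other 4 A+LO samples are named by the LO sample on their array, because their columns and labels carry different numbers.

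The 16S gene mixes stretches that nearly all bacteria share with stretches that differ between families and species. A probe is a copy of 1 such stretch, and the array carries variants of it that differ by 1 or more bases, so that related bacteria can be caught by at least 1 variant. How brightly a spot shines depends on how much matching DNA is present and also on how tightly that probe binds, so a level of one probe is no measure of amount against another. The amplified gene is counted here, which mixes the number of bacteria with their gene copies and with the amplification itself.

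The variants of a group are described by their bases relative to a reference probe, the variant with the fewest summed differences from the others of its group. Positions are counted from 1 at the 5′ end as the files write the probe, and a change such as A20C gives the reference base, the position and the variant's base. Probe group 1 had 46 variants, group 2 had 81, group 3 had 152, group 4 had 43 and group 5 had 2. The reference probes were b6959_1_10, b6959_2_75, b6959_3_2, b6959_4_8 and b6959_5_1. Of the 25 positions, 16 varied in group 1, 18 in group 2, 15 in group 3, 17 in group 4 and 1 in group 5. A variant differed from its reference at a median of 3 positions in each of groups 1 to 4, and at most at 13, 10, 9 and 8 positions. The G and C content had a median of 56% in group 1, 52% in group 2, 40% in group 3 and 60% in group 4. No sequence occurred in more than 1 probe of the array. The longest run of bases that a member shared with a probe of another set was 24, in group 4. A shared run of at least 20 bases occurred in 1 member of group 4 and 1 of group 2.

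Group 4 held a feature that its name does not carry, a set of positions that changed together. The letters at positions 14 and 24 were complementary in all 43 variants. There 20 variants had the reference pair, 20 carried A14G with T24C, and 3 carried A14C with T24G. At positions 15 and 23 the letters were complementary in 42 of 43 variants and formed a G and T pair in the other. This set 5 variants apart with G15T and C23A and 1 variant, b6959_4_42, with G15C and C23G. Positions 16 and 22 were complementary in all 43 variants, with G16A and C22T in 2 of them and G16T and C22A in 1. Among 390 pairs of varying positions at least 4 bases apart in the set, these 3 pairs alone were complementary in at least 90% of a group's variants while taking at least 3 kinds of pair. As background, ribosomal RNA folds into stems in which a change on one side is matched on the other. Group 3, with 79 pairs of positions searched, had no such pair.

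A probe was counted as detected in a sample where over 0.5 of its usable spots were well above background by the scanner software's test. Of the 324 members, 111 were detected in all 25 samples, 82 in 6 to 24, 54 in 1 to 5 and 77 in none. The share detected in every sample was 34.3%, beside 9.12% of all probes on the array. Of the 4441 probes on the array, 2298 were detected in no sample. The split ran between probe groups. In group 4, 35 of 43 variants were detected in all samples and none was undetected throughout. In group 3, 75 of 152 were detected in all samples and 1, b6959_3_108, in none. Group 1 had no variant detected in all samples, 39 detected in at least 1 and 7 in none. Group 2 was dark: 69 of its 81 variants were detected in no sample. In group 5, b6959_5_1 was detected in all samples and b6959_5_2 in 24.

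By diet, the share of members detected was 58.5% ± 7.10 in PO (SD, n = 6) and 53.1% ± 5.37 in LO (n = 6). With aleurone it was 58.1% ± 7.89 in A+PO (n = 6) and 50.2% ± 6.49 in A+LO (n = 7). All probes of the array fell in the same order, with 25.1% (PO), 24.8% (A+PO), 21.4% (LO) and 18.8% (A+LO). PO samples ran from 51.2% to 71.0% with a median of 56.3%, and A+PO samples from 50.3% to 72.8% with a median of 56.2%. LO samples ran from 42.6% to 57.1% with a median of 54.9%, and A+LO samples from 36.4% to 55.6% with a median of 51.2%. The 4 groups overlapped. The highest shares came from 1 array, that of PO 1 (71.0%) and A+PO 1 (72.8%). The lowest came from another, that of LO 4 (42.6%) and its A+LO partner (36.4%). The same samples were the extremes over all probes, at 32.3%, 34.5%, 15.3% and 13.0%. In that partner the 95th percentile of the raw signal was 1044, beside 45988 in A+LO 9, the next lowest. This partner was kept in the main values. The share of members detected differed by −5.35 percentage points for LO minus PO and by −7.91 for A+LO minus A+PO. With both of those arrays left out, these differences were −0.74 and −2.66 points. With detection set at 3 background SD in place of the software's test, LO minus PO turned to 4.53 points, and A+PO minus PO went from −0.36 to −29.0 points. That setting counted 67.0% to 100% of members as detected in PO and LO samples, and 49.1% to 82.4% in A+PO samples. In PO 1, PO 3 and LO 4 it counted 100%, which includes the members never detected by the software's test. Shares of all probes at this setting are not given. No test was made of a share over members that were picked with results known.

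Group 3 followed this order: PO samples detected 89.1% ± 6.24 of its variants, A+PO samples 88.7% ± 6.80, LO samples 81.8% ± 10.1 and A+LO samples 77.7% ± 12.0. Group 4 stayed near its ceiling, with 98.1% ± 0.949 (PO), 97.3% ± 0.949 (A+PO), 96.9% ± 1.90 (LO) and 94.0% ± 5.67 (A+LO). Group 1 depended on 1 array. Its share was 80.4% in PO 1 and 82.6% in A+PO 1, at most 21.7% in the other PO samples and at most 13.0% in the other A+PO samples, and ran from 2.17% to 13.0% in LO and from 0% to 6.52% in A+LO. Of group 2, PO and LO samples each detected 1.03% on average, A+PO samples 2.06% and A+LO samples 1.23%. The 3 next largest sets were darker than b6959 in every diet group. Their means ran from 8.21%, of b6968 in PO, to 17.1%, of b6956.

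Levels are given on the log2 scale relative to the 75th percentile of the 405 probes detected in all samples, so 0 is the level of a bright probe in that sample. The 77 members detected in no sample show where background lay on this scale. Their median was −11.01 ± 1.17 over the PO samples and −10.7 ± 2.36 over the LO samples. With aleurone it was −12.4 ± 0.478 (A+PO) and −9.50 ± 2.32 (A+LO). It was highest at −6.35 in A+LO 1, −6.56 in the A+LO partner of LO 4, −7.45 in LO 3, −7.91 in LO 9, −8.64 in the partner of LO 9 and −8.71 in PO 1. A dim probe could therefore fall no lower than about these levels in those samples.

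The brightest members by mean were b6959_4_24, which carries T19G, b6959_4_36 and b6959_4_14. b6959_4_24 had a level of 0.12 ± 0.18 in PO and 0.07 ± 0.16 in LO. Its level was 0.01 ± 0.20 in A+PO and 1.58 ± 2.44 in A+LO. In the A+LO samples it ran from −0.12 through a median of 0.04 to 6.39. The 3 members with the smallest spread among those detected in all samples also lay in group 4. They were b6959_4_41 (SD 0.625 over 25 samples), b6959_4_39 (0.701) and b6959_4_13 (0.703), and all 3 carry A14G with T24C. The highest mean in group 3 was that of b6959_3_24, with T1G and A7G, at 0.28 ± 0.73 over the 25 samples. In group 5 the reference b6959_5_1 ran from −0.61 to 0.03 in PO and from −0.50 to 0.03 in A+PO, and b6959_5_2, with A1C, from −3.25 to −0.01 and from −5.52 to −0.07.

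The dimmest member of group 4 was b6959_4_23, with G4A, G5A, A14C, A18T, T19C and T24G, which was detected in 1 PO sample only. The dimmest of group 3, b6959_3_108, differed from its reference at 9 positions. In group 1 the highest mean was that of b6959_1_12, with A4G and A6G, detected in 15 samples, and the lowest that of b6959_1_18, detected in none. b6959_1_12 had a level of −1.36 in PO 1 and −4.53 in A+PO 1, and at most −8.06 in the other PO samples. In group 2, b6959_2_43 had the highest mean and was detected in 11 samples although it differs from its reference at 10 positions, and b6959_2_68 had the lowest and was detected in none.

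Detection in group 3 fell with the number of bases by which a variant departs from the reference. Of 16 variants with at most 1 difference, 14 were detected in all samples (87.5%). The share was 55.2% of 29 variants with 2 differences, 55.8% of 43 with 3, 42.4% of 33 with 4 and 22.6% of 31 with 5 to 9. Across the 152 variants, with levels at background included, mean level and number of differences had a Pearson r of −0.527, and mean level and G and C content an r of 0.128. These are descriptions: variants share most of their bases and all were read on the same arrays. In group 4, 9 of 9 variants with at most 1 difference and 6 of 11 with 5 to 8 were detected in all samples, and r over the 43 variants was −0.395. In group 2, all 7 variants with at most 1 difference were detected in no sample.

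Single-base changes are given by detection, since the level of a probe at background is only a bound. In group 3, 317 pairs of variants differed at a single base. In 100 of these pairs both variants were detected in all samples, in 120 exactly 1 was, and in 97 neither was. The share of pairs with exactly 1 so detected was 42.2% of 206 pairs at positions 1 to 8, 36.6% of 82 at positions 9 to 17 and 10.3% of 29 at positions 18 to 25. The number of samples in which the members of a pair were detected differed by a median of 9 over the 8 pairs at position 10, by 15 over the 4 pairs at position 21, and by at most 2 at each other position with pairs. None of the 7 variants with T10G was detected in all samples, and they were detected in a median of 3 samples. Of the 9 variants with T10C, 7 were detected in all samples. b6959_3_74 was detected in all 25 samples and b6959_3_76, which differs from it by T10G alone, in 7. Group 4 had 35 such pairs, 30 of them with both variants detected in all samples. Group 2 had 93, none with a variant detected in all samples.

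Position 4 held 92 of the pairs, of which 41 had exactly 1 variant detected in all samples. b6959_3_136, with A15T, was detected in all 25 samples and ran from −3.43 to 0.21 in PO. b6959_3_143, the same sequence with the further change A4C, was detected in 5 samples and ran from −11.6 to −4.73 in PO. Of all 317 pairs of group 3, this one had the largest gap in mean level. The gap was 9.85, beside a median of 1.00 over the 92 pairs at position 4. With A4C alone, b6959_3_142 was detected in 23 samples. Among the 19 variants with A4T, 1 was detected in all samples, and among the 15 with A4C, 2 were. With A4G, 8 of 19 were detected in all samples, and with the reference base 64 of 99. These variants were singled out after their values were seen.

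Single-base variants also set samples apart from each other. The 3 members with the largest spread among those detected in all samples were b6959_3_103 (A20C, SD 3.996), b6959_3_102 (A20T, SD 3.62) and b6959_3_104 (A20G, SD 3.60), the other bases at 1 position of the reference b6959_3_2. b6959_3_2 itself had a level of −0.16 in PO 5 and 0.34 in A+PO 5, and ran from −0.28 to 0.14 over all PO samples. In PO 5 the level was −7.82 for b6959_3_102, −7.69 for b6959_3_103 and −7.57 for b6959_3_104. In A+PO 5, on the same array, it was −10.2, −10.3 and −10.2. The other 5 PO samples lay between −0.33 and 0.26 for all 3 variants. The same contrast occurred on the array of LO 11 and A+LO 9. There b6959_3_2 was at −0.01 and 1.51, and the 3 variants were at −7.43, −7.49 and −7.24 in LO 11 and at −9.75, −9.83 and −9.85 in A+LO 9. On the array of LO 4, b6959_3_103 alone was low, at −6.94 and −5.70, while b6959_3_102 was at 0.71 and 1.08. On the array of LO 3 and A+LO 1 all 4 probes were low, with b6959_3_2 at −5.78 and −6.05. On each of these arrays the Cy3 and the Cy5 sample fell on the same side.

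A split by family ran through group 4 on the array of LO 3 and A+LO 1. The 20 variants with A14G and T24C had a median level of 0.01 in LO 3 and 1.79 in A+LO 1. The 20 variants with the reference pair at those positions had a median of −5.47 and −5.93, although all 20 were detected in both samples. In the PO samples the medians ran from −0.15 to 0.08 for the first family and from −0.15 to 0.22 for the second. In A+PO 5 the first stood at −0.70 and the second at 0.17, the other way round. In A+LO 9 they stood at 1.38 and −0.28. In LO 4 both were low, at −1.13 and −2.35. Over all 25 samples the first family was the higher in 16 and the lower in 9, and the medians lay over 0.5 apart in 6. In the other 4 LO samples they ran from −0.03 to 0.05 and from −0.04 to 0.02. In group 3 the 58 variants with C12T had a lower median level than the 78 variants with the reference base in 23 of 25 samples, for example −6.97 beside −0.23 in PO 6. The 2 exceptions were LO 3, at −3.26 beside −6.30, and A+LO 1, at −3.62 beside −6.11. The members never detected stood at −7.45 in LO 3 and −6.35 in A+LO 1. In the partner of LO 4, counted among the 23, the medians were −6.50 and −6.29, beside −6.56 for the members never detected. The families were defined after the values were seen, and no test was made.

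The median level over the 193 members detected in at least 6 samples, the number needed to enter the tests, sums up the samples. Just inside that limit were 3 members detected in exactly 6 samples, and just outside it 3 detected in exactly 5. The median ran from −1.49 to −0.18 in PO and from −3.69 to −0.47 in A+PO. In LO it was −0.05, −0.10 and −0.08 in LO 6, LO 8 and LO 9, but −3.06 in LO 11, −5.66 in LO 3 and −6.29 in LO 4. In A+LO it was −0.66, −0.73 and −1.72 in the partners of LO 6, LO 8 and LO 9, and −2.34 in A+LO 11. It was −5.12 in A+LO 9, −5.97 in A+LO 1 and −6.31 in the partner of LO 4. The members never detected stood at −6.35 in A+LO 1 and −6.56 in that partner. LO samples thus lay either above all PO samples or below them all. The group 3 median was also below all PO samples in LO 3, LO 4 and LO 11, and above them all in LO 8. In LO 6 (−0.93) and LO 9 (−0.89) it lay within the PO range of −2.50 to −0.28. The group 4 median stayed between −0.26 and 0.16 in 21 samples. It lay between −5.84 and −1.09 in the 4 samples on the arrays of LO 3 and LO 4. Across the 25 samples the medians of groups 3 and 4 had an r of 0.57, with scaling and arrays shared. Of the 52 other sets with at least 3 such probes, b6991 (14 probes, r = 0.91), b6955 (110 probes, r = 0.892) and b6962 (3 probes, r = 0.842) had means most like that of b6959 over the 25 samples.

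Linseed oil was compared with the control oil first, without and then with aleurone. No member passed the test in either comparison (limma, Benjamini-Hochberg adjusted p under 0.05 over the 1153 probes tested). The background share of all probes was 0% in each direction of both. At an unadjusted p under 0.05 stood 5 of 193 members for LO against PO (2.59%, beside 2.25% of all probes tested) and 7 for A+LO against A+PO (3.63%, beside 7.55%). The median difference over the members was −1.32 for LO minus PO, beside −1.10 over all probes tested, and −0.61 for A+LO minus A+PO, beside 0.68. Of the members, 177 of 193 were lower in LO than in PO, and 133 of 193 were lower in A+LO than in A+PO. The same counts over all probes tested are not given, so these are not read as a trait of the set. The median of the members never detected was itself 0.33 higher in LO than in PO and 2.85 higher in A+LO than in A+PO, and its part in the differences was not tested. Without the filter on dim probes, 121 of the 324 members passed for A+LO against A+PO. Of the members 34.3% were then higher and 3.09% lower, beside 69.8% and 0.676% of all probes.

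The smallest p for LO against PO belonged to b6959_3_84, which carries A15G. It ran from −1.35 through a median of −0.56 to −0.04 in PO and from −6.92 through −3.11 to 0.09 in LO, a difference of −3.43 (SE 1.44, adjusted p = 0.756 by limma). Of the LO samples, 3 of 6 lay below the PO mean. b6959_3_14, with T1C and G3A, differed by −3.50 (SE 1.47, adjusted p = 0.756 by limma), also with 3 of 6 LO samples below the PO mean. For A+LO against A+PO, b6959_3_84 ran from −2.66 to −0.15 in A+PO and from −10.7 to 0.41 in A+LO. It differed by −3.79 (SE 1.42, adjusted p = 0.567 by limma), with 5 of 7 A+LO samples below the A+PO mean. b6959_3_91, with T1G and A15G, differed by −2.95 (SE 1.25) with 4 of 7 samples below. In each of these probes the linseed samples were split between levels near 0 and very low levels, and the groups overlapped.

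Aleurone was compared with no aleurone within arrays, first under the control oil. In A+PO, 63 of 193 members passed the test as lower than in PO and 0 as higher, or 32.6% lower beside a background of 66.1% of all probes lower and 0% higher. The median difference was −0.86 over the members and −1.98 over all probes tested. By probe group, 51 of 143 tested members of group 3 were lower, 7 of 42 of group 4, 4 of 5 of group 1, 1 of 1 of group 2 and 0 of 2 of group 5. Among the 111 members detected in every sample, 22 were lower, with a median of −0.39, and among the other 82 tested, 41 were lower, with a median of −1.61. Such splits over all probes tested are not given, so these counts are not read as a trait of the set or its groups. The 77 members never detected stood 1.35 below PO in A+PO, and the part of this in the counts was not tested. The direction belongs to this scaling. With each sample scaled on the median of the kept probes, 127 members were higher and 0 lower (65.8% higher, beside 27.4% of all probes tested). With the median of all probes 10 were higher and 1 lower (5.18% and 0.518%, beside 3.30% and 22.6%). Quantile scaling left 1 member, higher (0.518%, beside 0.781%), and loess within arrays 3 (0.518% higher and 1.04% lower, beside 1.21% and 5.90%). With the replicate number as a block, 95 were lower (49.2%, beside 79.6%). The count fell to 17 without A+PO 6, 19 without PO 1, 21 without A+PO 5, 24 without A+PO 4, 26 without PO 4, 29 without PO 5, and 32 without PO 6 or without A+PO 3. In these fits 46.2% to 57.3% of all probes were lower.

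The largest difference among members lower in A+PO and detected in all samples of a group was that of b6959_3_145, with A4C and A15G. It ran from −10.1 through a median of −5.81 to −1.20 in PO and from −12.1 through −8.32 to −3.89 in A+PO. The A+PO sample was the lower in 6 of 6 arrays (fitted difference −2.60, SE 0.83, adjusted p = 0.00851 by limma), which is −0.62 relative to the median of all probes. b6959_4_42, with 8 changes including G15C and C23G, ran from −10.7 through −8.13 to −1.51 in PO and from −12.5 through −10.5 to −2.06 in A+PO. It differed by −2.10 (SE 0.74, adjusted p = 0.0155 by limma), lower in 6 of 6 arrays and −0.12 relative to all probes. Its adjusted p was 0.0611 without PO 1, 0.0634 without A+PO 4 and 0.0609 without A+PO 6. Both groups overlapped for both probes, and the spread lay between arrays.

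Under linseed oil, 1 member was higher and 3 were lower in A+LO than in LO, or 0.518% and 1.55% beside backgrounds of 0.867% and 4.08%. The median difference was −0.23 over the members and −0.24 over all probes. b6959_4_29, with 8 changes including G15T, G16T, C22A and C23A, ran from −0.16 through 0.01 to 0.55 in LO and from −0.05 through 0.58 to 6.19 in A+LO. It differed by 1.78 (SE 0.54, adjusted p = 0.0493 by limma) and was higher in 5 of 6 arrays. b6959_4_31, with T10C among 6 changes, ran from −5.29 through −0.94 to 0.07 in LO and from −6.51 through −4.34 to −0.81 in A+LO. It differed by −2.09 (SE 0.56, adjusted p = 0.0405 by limma), lower in 6 of 6 arrays. b6959_3_113, with G3A and C12T, differed by −1.77 (SE 0.54, adjusted p = 0.0493 by limma), also lower in 6 of 6. These calls stood near the threshold. Over the 25 fits with 1 sample left out, b6959_4_29 passed in 2, b6959_4_31 in 4 and b6959_3_113 in 3. With the array as a fixed block, or in a fit of LO and A+LO alone, 0 members passed, and none of the 39 alternatives run gave 4 members. Without LO 4, 71 members passed (5.18% higher and 31.6% lower, beside 3.30% and 40.4% of all probes). Without its A+LO partner 65 passed (5.18% and 28.5%, beside 3.56% and 38.7%). The count was 7, all lower, without A+LO 1 (3.63%, beside 8.93%) and 1, lower, without A+PO 5 (0.518%, beside 1.65%). It was 0 without any other single sample. Scaled on the median of the kept probes, 58 were higher and 0 lower (30.1% higher, beside 41.6%), and on the median of all probes 0 were higher and 96 lower (49.7% lower, beside 57.7%).

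The aleurone difference under linseed oil was then compared with that under the control oil, as the first minus the second. Here 19 of 193 members were higher, or 9.84% beside a background of 28.2%, and 0 were lower, beside 0%. The median was 0.46 over the members and 1.51 over all probes. The 19 were 5 of 5 tested members of group 1, 1 of 1 of group 2 and 13 of 143 of group 3, with none of 42 in group 4. They were dim: each was detected in 6 to 17 samples, with a median of 10, and 0 was detected in every sample of a diet group. The members never detected in any sample gave 2.52 for the same contrast, close to the 2.94 (SE 0.90, adjusted p = 0.0173 by limma) of b6959_3_31 and the 2.73 (SE 0.84, adjusted p = 0.0179 by limma) of b6959_1_20. b6959_3_31 was detected in 3 PO and 4 A+PO samples but in 1 LO and 0 A+LO samples, and b6959_1_20 in 4 A+PO and 3 A+LO samples alone. The count was 0 without PO 1 and 0 without A+LO 1, 6 without A+PO 4, 7 without A+PO 6, and 12 without PO 2, A+PO 5 or LO 11. All probes were higher at 0% without PO 1, at 5.72% without A+LO 1 and at 16.4% to 23.7% without the others named. Scaled on the median of all probes the count was 0 higher and 47 lower (24.4% lower, beside 15.4%). With the software's own background subtraction it was 0, and without the filter on dim probes 159 higher (49.1%, beside 83.8%).

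Detection itself differed most between diets for 3 members. b6959_4_42 was detected in 6 of 6 PO, 5 of 6 A+PO, 5 of 6 LO and 2 of 7 A+LO samples. b6959_3_144, with A4C and A15C, was detected in 3 PO and 5 A+PO samples and in 1 LO and 1 A+LO sample. b6959_1_20, with A6G, A13G and G19A, was seen only in Cy5 samples, 4 of A+PO and 3 of A+LO. All 3 were picked as the largest gaps among 324 members, so the gaps are a description.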

How the data were processed

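Faecal 16S genes were amplified with 35 cycles from 10 ng of DNA and 250 ng hybridised, per the labels' protocols. Agilent Feature Extraction 10.5.1.1 wrote the deposited values, linear spot intensities, per the file headers. A channel without a listed sample (1) was left out. Here, normexp (offset 50) corrected the mean signal with the median background. Spots marked as outliers were dropped, unless all spots of the probe were so marked in that sample. Log2 values were averaged over a probe's spots, and the 75th percentile of the 405 probes detected everywhere was subtracted. The 1153 probes detected in at least 6 samples entered limma 3.58.1 (R 4.3.3), with group means, a random array block (correlation 0.76) and Benjamini-Hochberg adjustment. Python 3.11.15 compared sequences, which are not printed. No spot was saturated (0) in the 21 samples whose saturation column was used. The 13 arrays limit the precision. Same-numbered PO and A+PO samples share arrays, with deviations correlated at 0.867 to 0.94. LO and A+LO samples of the same number, which lie on different arrays, gave −0.34 and 0.004. LO and A+LO samples of one array gave 0.67 to 0.944. Named probes have the largest differences past the test among probes seen throughout 1 compared group (where there were none, the smallest p), the extreme means of a probe group, the extremes of spread and detection, or the brightest means. Variants at positions 4, 10, 15 and 20 of group 3 were also named after their values were seen. Members and lists were chosen with earlier results of these data known. The labels do not say that rats were housed apart, so p-values measure only the spread found in these samples and arrays. With the array block, those for aleurone rest mainly on the spread of differences within arrays.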

Additional observations from a re-analysis of the deposited data

Results flagged for a closer look

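Samples far from the others of their diet group, by Dixon's criterion at the 95% level, occurred in 31 of 128 quantities tested, where chance gives about 1 in 20. That rate does not apply to the single probes among them, several of which were named for a large spread, a high mean or a gap in detection. Many of the quantities also share probes and arrays. The values below are given without an explanation, and no cause was tested.

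On the array that PO 1 shared with A+PO 1, group 1 was detected at 80.4% in PO 1, next to 21.7% in the nearest PO sample, and at 82.6% in A+PO 1, next to 13.0%. Of all probes, 32.3% were detected in PO 1 and 34.5% in A+PO 1, the highest shares of the 25 samples. PO 1 also stood apart for group 2, with 3.70% detected. b6959_1_12 was at −1.36 in PO 1 and −4.53 in A+PO 1, and b6959_1_20 at −7.52 in PO 1.

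The 3 variants at position 20 of the group 3 reference stood apart in PO 5 and A+PO 5, which share an array. b6959_3_103 was at −7.69 and −10.3, b6959_3_102 at −7.82 and −10.2, and b6959_3_104 at −7.57 and −10.2. In A+PO 5, group 4 was detected at 95.3%, b6959_4_41 was at 0.38 and b6959_4_36 at 0.33.

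On the array of LO 4, the share of the set detected was 42.6% in LO 4 and 36.4% in its A+LO partner. Of all probes, 15.3% and 13.0% were detected there, the lowest shares of the 25 samples. The 95th percentile of the raw signal was 1044 in the partner. For group 3 the shares were 62.5% and 52.6%, and for group 4 they were 93.0% and 81.4%. Group 5 was detected at 50.0% in the partner, 1 of its 2 probes. In LO 4, b6959_4_41 (0.25), b6959_4_24 (0.40), b6959_4_36 (0.42) and b6959_4_14 (0.40) lay above the other LO samples and b6959_4_31 (−5.29) below them.

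In A+LO 1, group 4 had a median level of −5.84 while b6959_4_41, a member of it, was at 3.03. PO 3 detected 100% of group 4. A+PO 3 had a group 4 median of −0.265, below the nearest other A+PO sample at −0.085.

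The aleurone difference under linseed oil differed from that under the control oil for 19 of 193 members by limma (9.84%, beside 28.2% of all probes tested). The dependence on scaling is given in the next part.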

How the results depend on the processing

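The comparison of LO with PO gave 0 members past the test in all 38 alternatives run, and A+LO minus A+PO gave 0 in 36 of 37. Without the filter on dim probes the latter had 121 members past the test, 111 higher and 10 lower.

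The counts for aleurone depended on the scaling, and the cause was not tested. For A+PO minus PO, 63 lower members became 11 (10 higher, 1 lower) on the median of all probes, 127 higher on the median of the kept probes, 1 higher after quantile scaling and 3 (1 higher, 2 lower) after loess. For A+LO minus LO, 4 members became 96 lower, 58 higher, 9 (3 higher, 6 lower) and 35 (11 higher, 24 lower) under the same 4 scalings. The 9 were 1.55% higher and 3.11% lower, beside 1.99% and 5.72% of all probes. The 35 were 5.70% and 12.4%, beside 4.60% and 14.1%. With the software's background subtraction the 4 became 32 (8 higher, 24 lower), or 4.15% and 12.4% beside 3.99% and 33.7%. With its processed signal they became 25 (4 higher, 21 lower), or 2.07% and 10.9% beside 1.99% and 31.2%. The 19 members of the difference between the aleurone effects became 47 lower on the median of all probes. They became 0 with either software signal, the median of the kept probes, quantile scaling or loess. Without the filter on dim probes, 35 members were lower for A+PO minus PO (10.8%, beside 18.3% of all probes). The count was then 0 for A+LO minus LO, beside 0.113% of all probes lower. It was 159 higher for the difference between the effects (49.1%, beside 83.8%).

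Without the array as a block, all 3 counts were 0. With the array as a fixed block or in a fit of the compared groups alone, A+LO minus LO gave 0. A fit of PO and A+PO alone gave 95 (49.2%, beside 78.6% of all probes). The replicate block on shared numbers also gave 95 for A+PO minus PO, whose pairs share arrays. The replicate block gave 0 for A+LO minus LO and for the difference between the effects, and could not be fitted for A+LO minus A+PO, which share 1 number. With 1 sample left out, the count ran from 17 to 91 for A+PO minus PO, from 0 to 71 for A+LO minus LO and from 0 to 23 for the difference. The counts of 91 and 23 were 47.2% and 11.9% of members, beside 78.6% and 32.2% of all probes. The 3 alternatives without whole arrays were chosen after seeing the data. Without the array of PO 1, A+LO minus LO gave 0, beside 1.21% of all probes lower. The difference gave 12 (6.22%, beside 18.5%). Without the array of LO 4, A+LO minus LO gave 71 (10 higher, 61 lower), or 5.18% and 31.6% beside 3.56% and 40.2% of all probes. Without both arrays it gave 69 (9 higher, 60 lower), or 4.66% and 31.1% beside 3.47% and 40.0%.

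The median over members for A+PO minus PO turned from −0.86 to 0.54 on the median of all probes, 1.98 on that of the kept probes and 0.28 after quantile scaling. For A+LO minus A+PO it went from −0.61 to −3.39 on the median of all probes. The detected share at 3 background SD differed by 4.53 points for LO minus PO and by −29.0 for A+PO minus PO. It was 67.0% to 100% in PO and LO samples and 49.1% to 82.4% in A+PO samples. This setting was not run for comparisons with A+LO, whose background SD was not used for 4 samples.

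Of the named members, b6959_3_145 turned to 0.24 (median of kept probes) and 0.11 (quantile), and b6959_4_42 to 0.74 (median of kept probes) and 0.040 (loess), both for A+PO minus PO. In the difference between the effects, b6959_3_31 turned to −0.60 (quantile) and −0.28 (loess), and b6959_1_20 to −0.085 (median of all probes) and −0.18 (loess).

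Signal over background limits dim members, such as most of group 2, and linseed samples in which background lay high on the scaled levels. Such members have only an upper bound there.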
